A study of Rattus norvegicus with 19 samples.

Results

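The comparison set the renal cortex of rats made diabetic with streptozotocin against that of vehicle-injected rats, across every gene that 1 array design could measure. Its members were the 12 arrays of these groups, out of 19 arrays in the series, chosen by their labels: 5 Sham rats and 7 DKD rats (the labels' name for the diabetic group). All animals were male Crl:CD (SD) rats, an outbred albino stock, with 1 array per rat and an age the sources used here do not give. Sham rats received vehicle intravenously and normal feed. DKD rats received 65 mg/kg of streptozotocin intravenously 7 days before the diabetic animals were divided into groups matched on body weight and blood glucose, followed by normal feed. Kidneys were taken 14 days after that division, and total RNA of the cortex was labelled with Cy3. The other 7 arrays came from diabetic rats given 0.01% enarodustat in the feed; they entered the fit for the estimate of spread and are not described.

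Streptozotocin is taken up by the insulin-producing beta cells and destroys them, so the model is one of insulin deficiency with high blood glucose. The agent itself alkylates DNA, and the groups differ in having received it as well as in being diabetic; its direct action on kidney cells and the effect of diabetes cannot be told apart here. In the renal cortex most RNA comes from the proximal tubule, whose cells reabsorb filtered glucose, amino acids, phosphate and protein, secrete organic anions and cations, burn fatty acids for energy and activate vitamin D. Male rats express several of these transporters and enzymes under the control of androgens and of the pulses of growth hormone. In whole-tissue RNA, fewer cells of a type and less RNA per cell cannot be told apart.

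Levels are log2 values relative to the 75th percentile of all probes on the same array, so that 0 marks that percentile and negative values are dimmer; levels of different probes are not comparable with each other. Differences are DKD minus Sham on the log2 scale with the standard error (SE) of 1 limma fit, n = 7 and 5, and p-values adjusted by Benjamini-Hochberg over 24217 genes. A gene is said to rise or fall where its adjusted p was under 0.05. Of the 24217 genes, 4140 passed (17.1%), of which 1943 were higher in DKD (8.02% of the genes tested) and 2197 lower (9.07%). After normexp correction with quantile normalisation, another scaling of the arrays, 1590 rose and 2990 fell. Differences of at least 2-fold were found for 452 genes that rose and 441 that fell, and of at least 4-fold for 92 and 106. The median size of a difference that passed was 0.526 on the log2 scale, against a median standard error of 0.147 over all genes. Sizes on dim probes depend on the background correction: of 171 genes named here that passed, 32 had a difference more than 2 times smaller after the normexp correction. The groups did not overlap in 2586 genes (10.7%). The median difference over all genes was -0.020, against which the medians of gene lists are to be read.

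**Figure D1:**
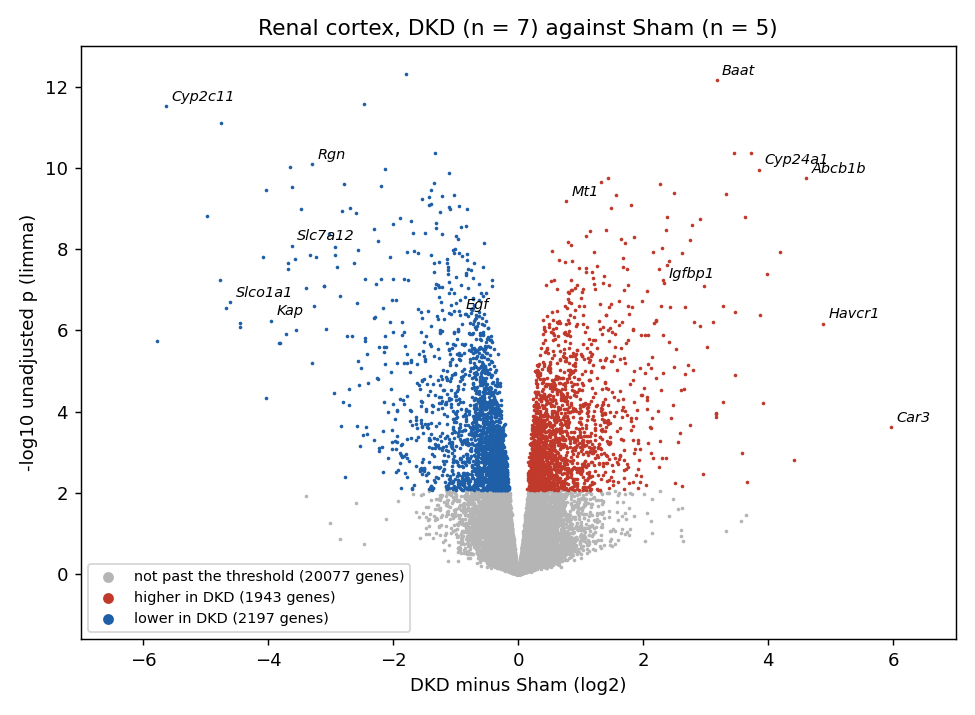
Each point is 1 gene: the log2 difference DKD minus Sham (x axis) against the negative log10 of its unadjusted limma p (y axis), with genes past an adjusted p of 0.05 in red (higher in DKD, 1943 genes) or blue (lower, 2197 genes). Baat and Cyp2c11 lie near the top of either side, while Car3, the gene with the highest rise, lies far lower, with levels that differed widely among the 7 DKD rats.

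The 3 slides each held arrays of both groups, and 4112 of the 4140 genes had the same sign on all 3. Position on the slide was uneven: DKD replicates 2 and 4 lay in row 2, while the other 5 DKD arrays and all Sham arrays lay in row 1. With those 2 arrays left out, 3171 genes passed (13.1%), 3019 of them among the 4140 and with the same sign, and none of the 4140 changed sign. Between 54.7% and 67.3% of the kept probes were well above background per array, with the lowest share in DKD replicate 4. Markers of the proximal tubule were bright in every array: the mean level of 12 measured markers lay between 4.46 and 4.56 in Sham and between 4.08 and 4.44 in DKD. Of these markers 3 rose and 7 fell (4 without DKD replicates 2, 4 and 6), with a median of -0.36, so the marker level moved with the group; its part in the falls of proximal tubule genes was not tested.

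Adipocyte markers moved with the group. Their mean level over 9 measured genes lay between -5.68 and -5.25 in Sham and between -4.83 and -1.06 in DKD, and the median difference was 1.85. Car3, Fabp4, Lep and Cfd rose, and the other 5 did not pass: Adipoq, the adipocyte hormone adiponectin, differed by 1.45 (adjusted p = 0.114), and Ucp1, which defines brown fat, by -0.14. Lep, leptin, was above background on no Sham array and 4 DKD arrays. Its fitted rise of 1.85 came to 0.16 (adjusted p = 0.11) after normexp correction with quantile normalisation, so the size is not measured. Car3, a carbonic anhydrase abundant in fat and muscle, had the widest range: its levels were -5.81, -4.82, -5.88, -6.12 and -5.65 in Sham and -3.29, 4.13, -1.76, 3.97, -0.90, 2.23 and -2.18 in DKD replicates 1 to 7. Replicates 2, 4 and 6 were the highest in Car3, in Fabp4, the fatty acid carrier of adipocytes, and in Cfd, the complement factor that adipocytes secrete. Car3 rose by 5.97 ± 1.30 (adjusted p = 0.00391), by 4.48 without the row 2 arrays and by 3.63 (adjusted p = 0.0331) without replicates 2, 4 and 6. Cfd rose by 3.66 ± 1.16 (adjusted p = 0.037); leaving out any 1 Sham rat, or DKD replicate 2, 4 or 6, ended its call, and without all 3 the difference was 1.54 (adjusted p = 0.309). Fabp4 rose by 3.58 ± 0.91 (adjusted p = 0.011) and had a difference of 1.94 (adjusted p = 0.0925) without those 3 rats. Gys2, the glycogen synthase of liver and fat, exceeded background in 2 of 5 Sham rats and was highest in DKD replicates 2, 4 and 6. Its fitted rise of 4.41 ± 1.18 (adjusted p = 0.0149) became 2.52 (adjusted p = 0.138) without them and 3.06 (adjusted p = 0.0566) without the row 2 arrays, and was 1.55 (adjusted p = 0.105) after normexp correction with quantile normalisation. The part of these markers in other results was not tested. Below, values without these 3 rats are given where a gene's call ended, and for some genes whose size changed. Sizes of other genes changed too: Qprt went from -0.98 to -0.66 and Igf1 from -1.45 to -1.82. With these 3 rats left out, 1314 genes rose and 1381 fell, against 1943 and 2197 with all rats. Counts of gene lists in that fit are to be read against this general loss of calls.

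The leading genes were taken from those well above background on all 12 arrays, with no overlap between the groups and a call that held without the row 2 arrays. Among them Car3 had the largest rise in this scaling, followed by Havcr1. Havcr1, which encodes the injury molecule KIM-1 of proximal tubule cells, had levels of -5.87, -6.39, -6.26, -6.91 and -6.64 in Sham and from -3.97 to -0.11 with a median of -0.87 in DKD. The Sham rats lay close together, while the DKD rats spread over more than 3 log2 units, with replicate 6 the lowest, and the rise was 4.88 ± 0.65 (adjusted p = 5.62e-05). After normexp correction with quantile normalisation the rise of Havcr1 was 2.52, below the 3.88 of Abcb1b. Its size and rank therefore depend on the background correction. Abcb1b, a P-glycoprotein that pumps drugs and lipids out of cells, was at -4.59, -3.93, -3.02, -3.56 and -2.52 in Sham and from 0.33 to 2.10 with a median of 0.97 in DKD, a rise of 4.61 ± 0.36 (adjusted p = 2.73e-07). Abcb11, the bile salt export pump known from hepatocytes, was at -4.33, -3.93, -5.21, -4.49 and -4.65 in Sham and from -2.42 to -0.86 with a median of -1.54 in DKD, and rose by 2.91 ± 0.26 (adjusted p = 8.89e-07). Baat, which joins bile acids to glycine or taurine, had the smallest standard error of the 15 leading rises. Its levels were -1.86, -2.07, -2.34, -1.66 and -1.89 in Sham and from 0.67 to 1.50 with a median of 1.31 in DKD, a rise of 3.18 ± 0.17 or 9.05-fold (adjusted p = 8.55e-09). The probe of Baat lay on chromosome 5 from 66245796 to 66245855 of the rn4 build, per the file headers.

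Angptl4, which inhibits the lipase of lipoprotein particles, rose by 3.63 ± 0.32 (adjusted p = 8.24e-07), from Sham levels from -3.75 to -2.23 to DKD levels from -0.09 to 1.73 with a median of 0.49. Cdkn1a, the cell cycle inhibitor p21, was at -1.64, -2.04, -2.37, -2.46 and -2.69 in Sham and from -0.05 to 1.60 with a median of 1.32 in DKD and rose by 3.33 ± 0.27 (adjusted p = 4.07e-07). Gpnmb, a lysosomal glycoprotein of phagocytes and injured tubules, rose by 2.97 ± 0.34 (adjusted p = 1.18e-05).

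By the same rule and in this scaling Cyp2c11 had the largest fall. After normexp correction with quantile normalisation its difference was -3.77, against -3.93 for Tff3. Cyp2c11, the male-specific cytochrome P450 of rat liver, was at -0.66, 1.06, -0.38, -0.60 and -0.18 in Sham and from -6.33 to -4.89 with a median of -5.89 in DKD, so that every DKD rat lay more than 4 log2 units below the lowest Sham rat (adjusted p = 1.86e-08). Kap, the kidney androgen-regulated protein, was at 7.29, 7.25, 7.43, 7.50 and 7.30 in Sham and ranged from 1.25 to 5.17 with a median of 3.69 in DKD, so that it fell by 3.95 ± 0.52 (adjusted p = 5.14e-05). Tff3, a trefoil peptide of epithelia, was at 5.29, 5.21, 5.30, 5.67 and 4.96 in Sham and from -0.32 to 3.16 with a median of 1.56 in DKD; the standard deviation was 0.26 in Sham and 1.21 in DKD, and the gene fell by 3.83 ± 0.56 (adjusted p = 0.000125). In both genes the diabetic rats were spread more widely than the Sham rats.

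Rgn, regucalcin, a calcium-binding lactonase, was at 2.83, 2.86, 3.04, 2.86 and 2.87 in Sham and from -1.05 to 0.31 with a median of -0.38 in DKD and fell by 3.29 ± 0.24 (adjusted p = 1.94e-07), or 9.79-fold. Hnmt, the methyltransferase that inactivates histamine, was at 1.47, 1.27, 1.37, 1.28 and 0.87 in Sham and from -4.19 to -0.98 with a median of -1.87 in DKD and fell by 3.30 ± 0.52 (adjusted p = 0.000272). Slc7a12, an amino acid carrier, fell by 3.62 ± 0.36 (adjusted p = 2.60e-06), from Sham levels from 0.50 to 1.37 to DKD levels from -3.65 to -2.07 with a median of -2.64. Gc, the vitamin D binding protein, was at 0.39, -0.51, 0.39, -0.40 and 0.63 in Sham and from -4.18 to -0.74 with a median of -2.52 in DKD, and fell by 2.58 ± 0.56 (adjusted p = 0.00379). Tmem86a, a lysoplasmalogenase, fell by 2.69, Nrep, a neuronal regeneration protein, by 2.79, Mylk3, a myosin light chain kinase, by 3.58, and Slco1a6, an organic anion carrier, by 2.48. Slco1a6 was far lower in DKD replicate 4 (-1.74) than in the other DKD rats, and Hnmt, Gc and Tff3 were lowest in the same rat. For Prima1, the membrane anchor of acetylcholinesterase, and for Gtpbp4, a nucleolar GTPase, the probes did not give 1 size. The brightest probe of Prima1 fell by 4.03 and its other probe gave -0.92; the brightest probe of Gtpbp4 fell by 2.59 and its other probes lay between -2.47 and -0.03.

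**Figure D2:**
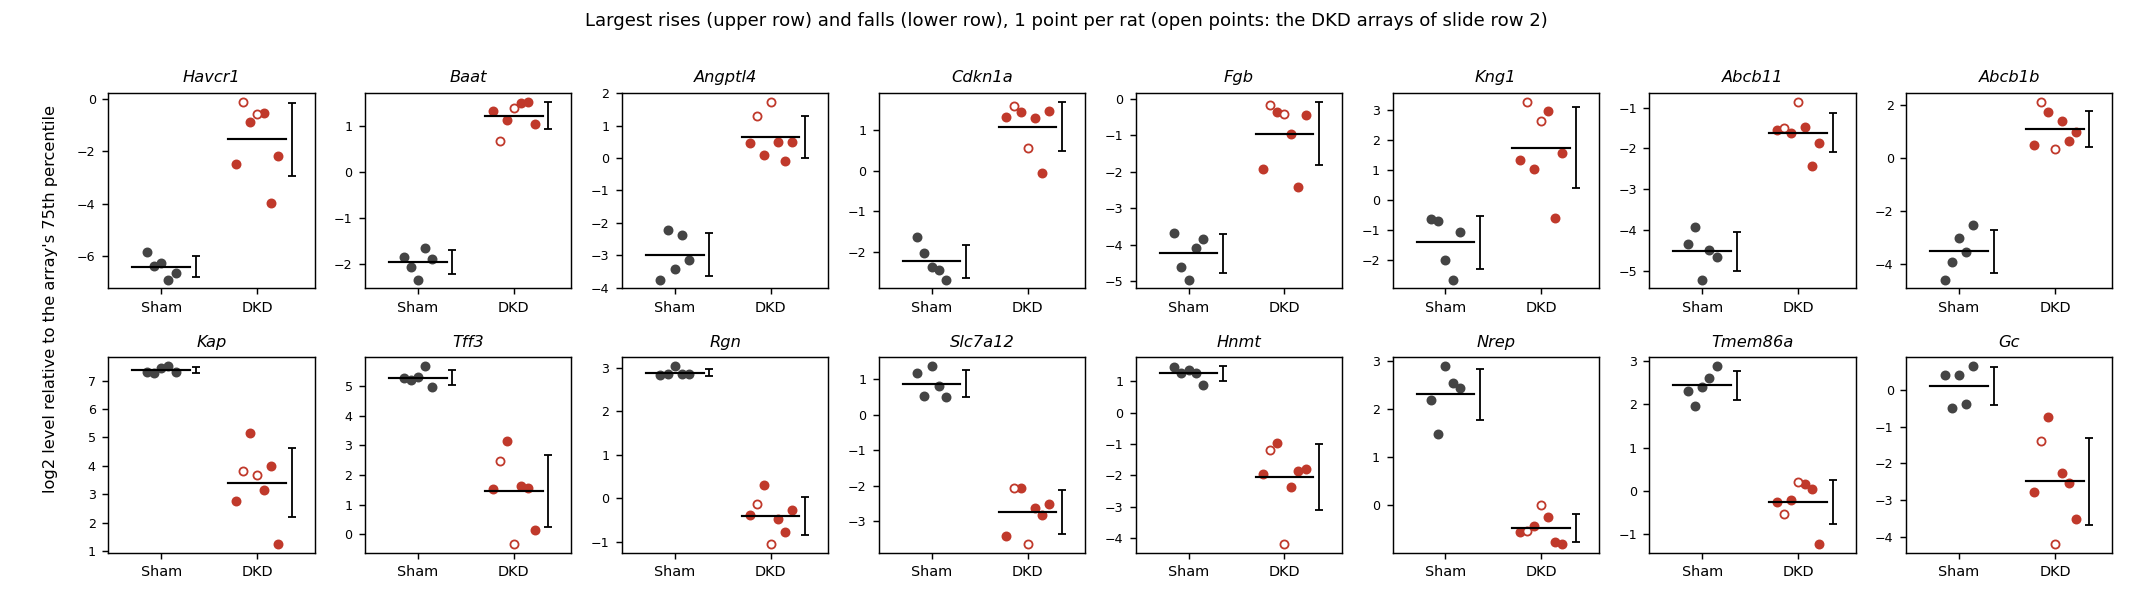
Level of 16 genes in each rat (y axis, log2 relative to the array's 75th percentile), with Sham in grey and DKD in red (open for the 2 arrays of slide row 2); the line is the group mean and the bar its SD. The groups are separate in all 16 panels; Sham rats lie close together for Havcr1, Kap and Rgn, and DKD rats for Baat.

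Of the 24217 genes tested, 9 that passed were above background on every DKD array and no Sham array, and 22 the other way round. These counts are not comparable, as 1 asks for detection on 7 arrays and the other on 5. Probes were kept if well above background on at least 5 of 19 arrays. Such a gene could pass that filter through the group where it was high, so its detection and adjusted p are descriptions. Changes of these genes are given as lower bounds that hold for the deposited background subtraction alone. A bound is the detected group's mean against the lowest signal well above background on the arrays of the other group. The adjusted p of those named lay between 2.07e-07 and 0.0139 in limma. Cthrc1, a secreted collagen-associated protein, was at least 3.1-fold higher in DKD, A2m, the protease inhibitor alpha-2-macroglobulin, at least 3.56-fold (adjusted p = 0.153 after normexp correction with quantile normalisation) and Fgg, the gamma chain of fibrinogen, at least 3.16-fold. Fabp1, the liver-type fatty acid binding protein, was at least 2.81-fold higher, Mogat2, an acyltransferase of fat absorption, at least 2.77-fold, and Cldn17, an anion-selective claudin, at least 3.28-fold. Scd, a fatty acid desaturase, was at least 2.44-fold higher with all arrays; its adjusted p was 0.0744 without DKD replicates 2, 4 and 6. In the other direction, Cpne4, a calcium-dependent phospholipid-binding protein, was at least 2.92-fold lower in DKD, Cga, the alpha chain of the pituitary glycoprotein hormones, at least 2.94-fold and Cyp8b1, the sterol hydroxylase that makes cholic acid, at least 2.53-fold. Defb21, a defensin, was at least 2.33-fold lower and Atp1a4, a sodium pump subunit known from testis, at least 2-fold. With a background correction that compresses dim signals (normexp) these differences came to 0.46 log2 units or less, so that their size is not measured.

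Kininogens and fibrinogen chains, plasma proteins best known from the liver, rose as families. Kininogens are the precursors of kinins, and fibrinogen is the clot protein made of an alpha, a beta and a gamma chain, whose genes neighbour each other. Kng1 was at -0.63, -0.70, -2.02, -2.67 and -1.09 in Sham and from -0.60 to 3.27 with a median of 1.55 in DKD, where replicate 6 at -0.60 barely exceeded the highest Sham rat, and rose by 3.16 ± 0.64 (adjusted p = 0.00229). Kng2l1 rose by 3.16 and Kng2 by 3.28 ± 0.63 (adjusted p = 0.00142). The probes of Kng1 and Kng2l1 shared a run of 55 identical bases out of 60, so their signals may come from either gene and are uncertain as separate measurements; the probe of Kng2 shared no run over 5 bases with them. In RefSeq (build GRCr8) the 3 genes also share sequence before their starts. The best matching stretch of 90 bases is shown because the genes moved together, with capitals where Kng2 or Kng2l1 differs from Kng1. It lies at chr11:91340309-91340398 on the minus strand for Kng1, chr11:91418375-91418464 on the plus strand for Kng2 and chr11:91483191-91483280 on the plus strand for Kng2l1.
Kng1: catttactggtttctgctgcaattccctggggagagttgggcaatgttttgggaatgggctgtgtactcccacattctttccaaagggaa
Kng2: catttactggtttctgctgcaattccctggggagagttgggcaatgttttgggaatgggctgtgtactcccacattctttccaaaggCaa
Kng2l1: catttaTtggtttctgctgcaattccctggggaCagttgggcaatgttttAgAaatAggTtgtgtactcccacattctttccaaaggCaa
Kng2 matched Kng1 at 89 of 90 positions (98.9%) and Kng2l1 at 83 (92.2%).

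Fgb, the beta chain, was at -3.67, -4.61, -4.96, -4.09 and -3.85 in Sham and from -2.41 to -0.18 with a median of -0.45 in DKD and rose by 3.28 ± 0.41 (adjusted p = 2.85e-05). Fga, the alpha chain, was at -1.78, -1.53, -1.82, -1.82 and -2.11 in Sham and from -0.95 to 0.29 with a median of -0.14 in DKD and rose by 1.56 ± 0.23 (adjusted p = 0.000146). Together with the bound given for Fgg, all 3 chains were higher in every DKD rat than in every Sham rat. DKD replicate 6, the lowest of the diabetic rats in Havcr1, was also the lowest in the kininogens and in all 3 fibrinogen chains. The letters CTGGGA form the core of the element through which interleukin-6 acts on acute phase genes. They were searched on both strands in the 250 bases before each RefSeq start and are shown in capitals for the 3 genes.
Fga: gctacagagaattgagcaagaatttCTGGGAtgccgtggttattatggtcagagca
Fgb: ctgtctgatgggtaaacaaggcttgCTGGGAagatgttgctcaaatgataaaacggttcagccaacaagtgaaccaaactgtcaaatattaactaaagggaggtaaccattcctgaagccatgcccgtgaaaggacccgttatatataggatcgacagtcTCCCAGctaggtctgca
Fgg: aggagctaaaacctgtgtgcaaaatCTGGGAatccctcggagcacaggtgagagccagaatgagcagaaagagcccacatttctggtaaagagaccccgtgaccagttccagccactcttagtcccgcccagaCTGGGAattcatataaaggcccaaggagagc
These stretches lie at chr2:170672014-170672069 (plus strand), chr2:170700876-170701052 (minus strand) and chr2:170652889-170653052 (plus strand). CTGGGA was present in the 250 bases of 7078 of 27457 promoters (25.8%), so its presence is a description of these windows and not of a binding site. Of the complement and coagulation list, 13 rose and 3 fell of 39 measured, with a median of 0.29. Masp2, a protease of the lectin pathway, rose by 2.50 ± 0.20 (adjusted p = 3.98e-07), though by 0.70 after normexp correction with quantile normalisation, and F2, prothrombin, by 1.63 ± 0.25 (adjusted p = 0.000234). Thbd, thrombomodulin, fell by 0.83 ± 0.11 (adjusted p = 3.88e-05) and Proc, the anticoagulant protein C, by 0.95 ± 0.15 (adjusted p = 0.000235). Without DKD replicates 2, 4 and 6, 10 members rose and 3 fell.

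Gene lists were described by the share of measured members that passed, to be read against the 8.02% of all genes that rose and the 9.07% that fell. Of 55 pathway lists, those with the largest share of rises were mitochondrial fatty acid oxidation (16 rose and 2 fell of 28 measured), tubular injury markers (25 rose and 4 fell of 46 measured), peroxisomal oxidation with PPAR-alpha targets (22 rose and 1 fell of 42 measured) and p53 targets (17 rose and 1 fell of 39 measured). In this scaling the largest shares of falls were in thick ascending limb genes (2 rose and 8 fell of 20 measured), the SLC22 transporters (1 rose and 7 fell of 18 measured), androgen- and growth-hormone-linked genes (3 rose and 12 fell of 31 measured) and cholesterol synthesis (2 rose and 11 fell of 29 measured). After normexp correction with quantile normalisation respiratory complex I had the larger share of falls, 23 of 36, against 10 of 20 thick ascending limb genes. The lists were chosen with results of these data known, so these shares are descriptions.

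**Figure D3:**
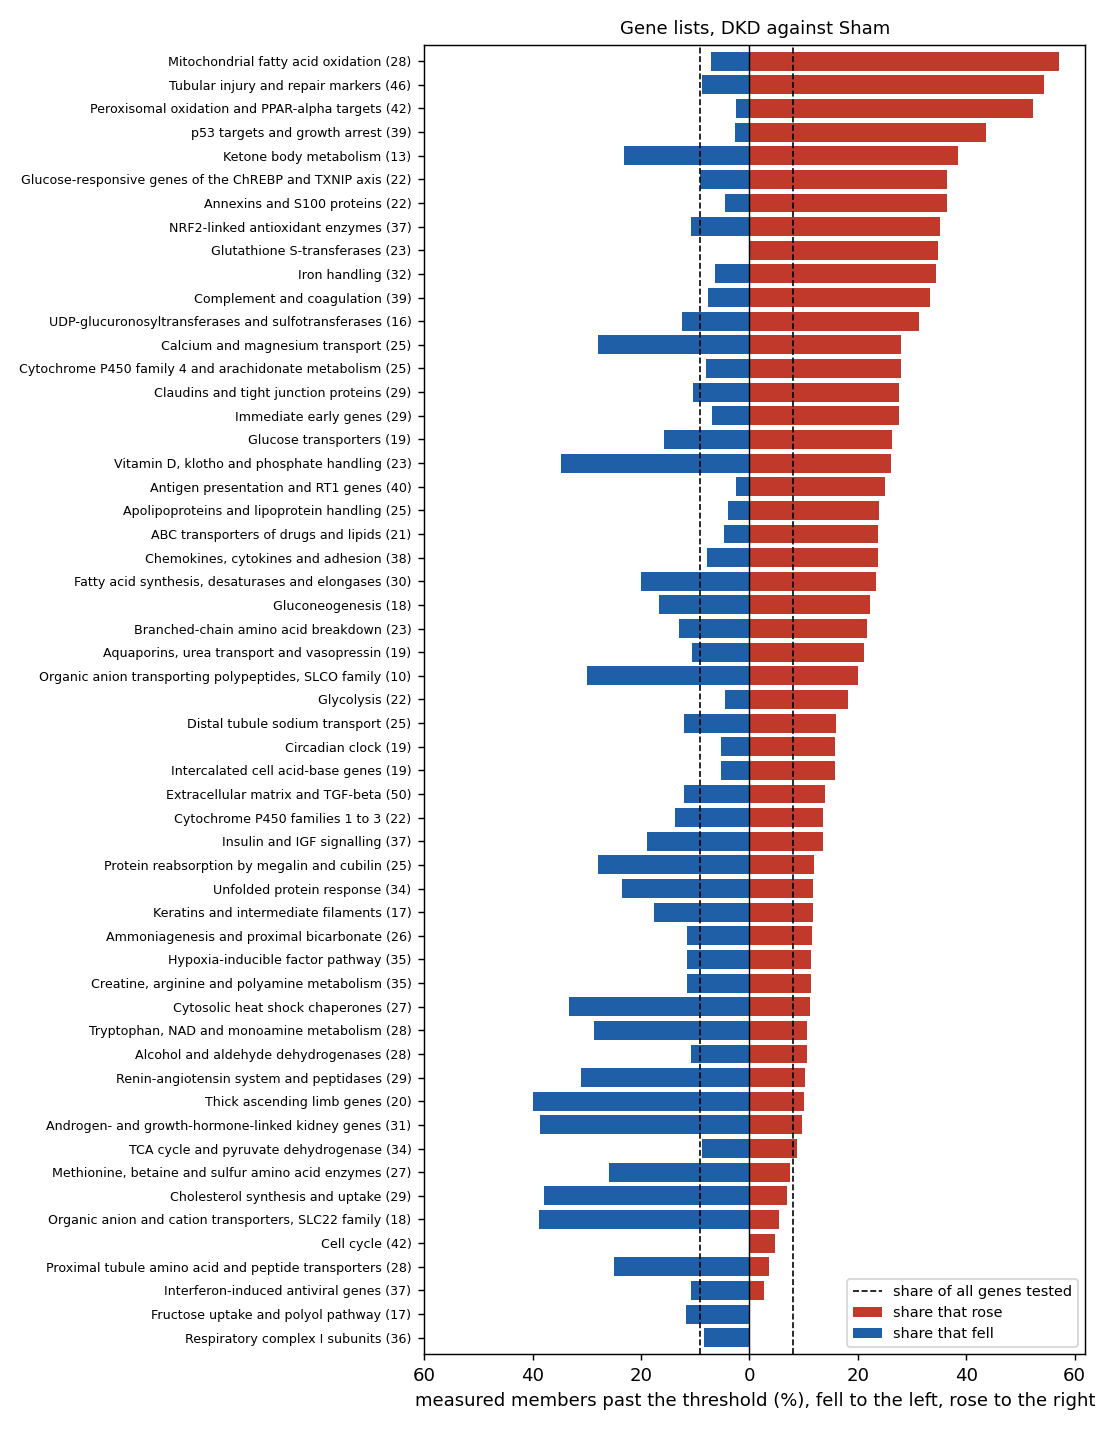
Share of the measured members of each gene list that rose (red, to the right) or fell (blue, to the left) in DKD, in percent, with the number measured in brackets; dashed lines mark the share of all genes tested (8.02% rose, 9.07% fell). Mitochondrial fatty acid oxidation has the largest share of rises and, under this scaling alone, thick ascending limb genes the largest share of falls: after normexp correction with quantile normalisation complex I had 23 falls of 36.

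The insulin-like growth factor (IGF) system shifted in opposite directions among its binding proteins. Insulin represses Igfbp1, which binds IGFs in plasma; it was at -0.73, -0.57, -1.11, -1.28 and -1.14 in Sham and from 0.38 to 1.90 with a median of 1.53 in DKD, a rise of 2.33 ± 0.26 (adjusted p = 1.09e-05). Every DKD rat lay above every Sham rat. Igfbp6, which prefers IGF2, rose by 2.11 ± 0.46 (adjusted p = 0.00386), or 1.04 after normexp correction with quantile normalisation. Igfbp4 was at 1.68, 1.81, 1.48, 1.24 and 2.28 in Sham and from -1.24 to -0.23 with a median of -0.42 in DKD and fell by 2.23 ± 0.22 (adjusted p = 2.16e-06), and Igfbp5 fell by 1.10 ± 0.09 (adjusted p = 5.90e-07). Both lay lower in all 7 DKD rats than in the lowest Sham rat. Igf1 itself was at 0.04, -1.32, 0.12, 0.71 and 0.13 in Sham and from -2.90 to -0.38 with a median of -1.22 in DKD, so the groups overlapped through Sham replicate 2. Its fall of 1.45 ± 0.43 (adjusted p = 0.0253) is weakly held: its adjusted p was 0.0737 with the replicate number as a block, and lay between 0.0506 and 0.0777 with each of Sham replicates 1, 3, 4 and 5 or DKD replicate 7 left out. In the authors' deposited value table its difference was -0.15 (adjusted p = 0.229), and in a fit of Sham and DKD arrays alone the adjusted p was 0.0558. Its other probes ranged from -1.48 to -0.08. Ghr, the growth hormone receptor, fell by 0.35 ± 0.08 (adjusted p = 0.00586) with other probes between -0.54 and 0.02, and Eif4ebp1, a translation repressor that insulin signalling inactivates, rose by 0.93 ± 0.14 (adjusted p = 0.000192). Of the insulin and IGF list, 5 rose and 7 fell of 37 measured.

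Prlr and Stat5a, which take up and relay hormone signals, fell. Of the list of androgen- and growth-hormone-linked genes, 3 rose and 12 fell of 31 measured. Prlr, the prolactin receptor, was at -0.66, -0.49, -0.47, -0.11 and -0.53 in Sham and from -2.87 to -2.08 with a median of -2.78 in DKD and fell by 2.19 ± 0.24 (adjusted p = 9.34e-06). Stat5a, the transcription factor that carries growth hormone and prolactin signals, was at -0.70, -0.48, -0.56, -0.01 and -0.60 in Sham and from -2.22 to -1.28 with a median of -1.59 in DKD, a fall of 1.24 ± 0.17 (adjusted p = 7.97e-05). Slc7a13, a cystine carrier of the male proximal tubule, fell by 1.42 ± 0.35 (adjusted p = 0.00862). Slc22a2, the organic cation carrier that is higher in male rat kidney, was at 4.09, 4.03, 4.08, 4.15 and 3.89 in Sham and from 1.48 to 2.59 with a median of 2.04 in DKD and fell by 2.00 ± 0.22 (adjusted p = 9.15e-06). Cyp2d4 rose by 0.69 ± 0.13 (adjusted p = 0.00106), against the direction of most of its list, whose median was -0.35.

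The enzyme that activates vitamin D fell and the one that degrades it rose. Cyp27b1, the enzyme that makes active vitamin D, was at -2.91, -2.38, -3.37, -2.59 and -3.29 in Sham and from -5.47 to -4.50 with a median of -4.69 in DKD and fell by 1.96 ± 0.24 (adjusted p = 2.16e-05). Cyp24a1, which degrades active vitamin D, was at -4.66, -3.33, -4.80, -3.50 and -4.79 in Sham and from -1.19 to 0.39 with a median of -0.29 in DKD, a rise of 3.85 ± 0.29 (adjusted p = 2.07e-07). The groups did not overlap in either gene, and their means differed by 3.89-fold and 14.5-fold. After normexp correction with quantile normalisation the differences were -1.01 for Cyp27b1 and 2.91 for Cyp24a1. Vdr, the vitamin D receptor, rose by 0.89 ± 0.21 (adjusted p = 0.00697), with DKD replicate 4 at -0.57 above the other 6, which lay no higher than -1.40. Lrp2, megalin, the receptor that retrieves vitamin D with its binding protein, fell by 0.62 ± 0.12 (adjusted p = 0.00199), while its partner Cubn, cubilin, rose by 0.51 ± 0.08 (adjusted p = 0.000286). Kl, klotho, the co-receptor of the phosphate hormone FGF23, fell by 0.44 ± 0.09 (adjusted p = 0.00202), and Xpr1, a phosphate exporter, by 0.60 ± 0.09 (adjusted p = 0.000222). Of this list, 6 rose and 8 fell of 23 measured, and 5 fell without DKD replicates 2, 4 and 6.

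Calcium-binding proteins of the distal nephron rose, and Egf and Fxyd2, both tied to magnesium reabsorption, fell. S100g, calbindin-D9k, was at -0.35, 0.22, -0.25, -0.34 and -0.46 in Sham and from 0.64 to 1.49 with a median of 0.98 in DKD and rose by 1.22 ± 0.17 (adjusted p = 0.000106). Calb1, calbindin-D28k, rose by 0.84 ± 0.22 (adjusted p = 0.0153), though its adjusted p was 0.0551 without Sham replicate 3 and 0.0738 without DKD replicates 2, 4 and 6. Trpv6, a calcium channel, was above background on all DKD arrays and no Sham array. Its fitted rise of 1.50 (adjusted p = 0.000255) was 0.17 after normexp correction with quantile normalisation, so the size is not measured. Trpv5, the calcium channel of the distal tubule, had a difference of 0.23 (adjusted p = 0.699). Egf, whose product opens the magnesium channel of the distal tubule, was at 2.46, 2.40, 2.49, 2.50 and 2.27 in Sham and from 1.36 to 1.73 with a median of 1.43 in DKD and fell by 0.92 ± 0.12 (adjusted p = 3.99e-05). Fxyd2, the gamma subunit of the sodium pump, fell by 0.40 ± 0.07 (adjusted p = 0.000615), and Cnnm1 by 1.16 ± 0.22 (adjusted p = 0.00139), although its other probes ranged from -1.18 to -0.02. Slc41a3, a mitochondrial magnesium carrier, rose by 1.11 ± 0.16 (adjusted p = 0.000151), or 0.49 after normexp correction with quantile normalisation. The list held 7 rises and 7 falls among 25 measured members, with 3 and 6 without DKD replicates 2, 4 and 6.

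**Figure D4:**
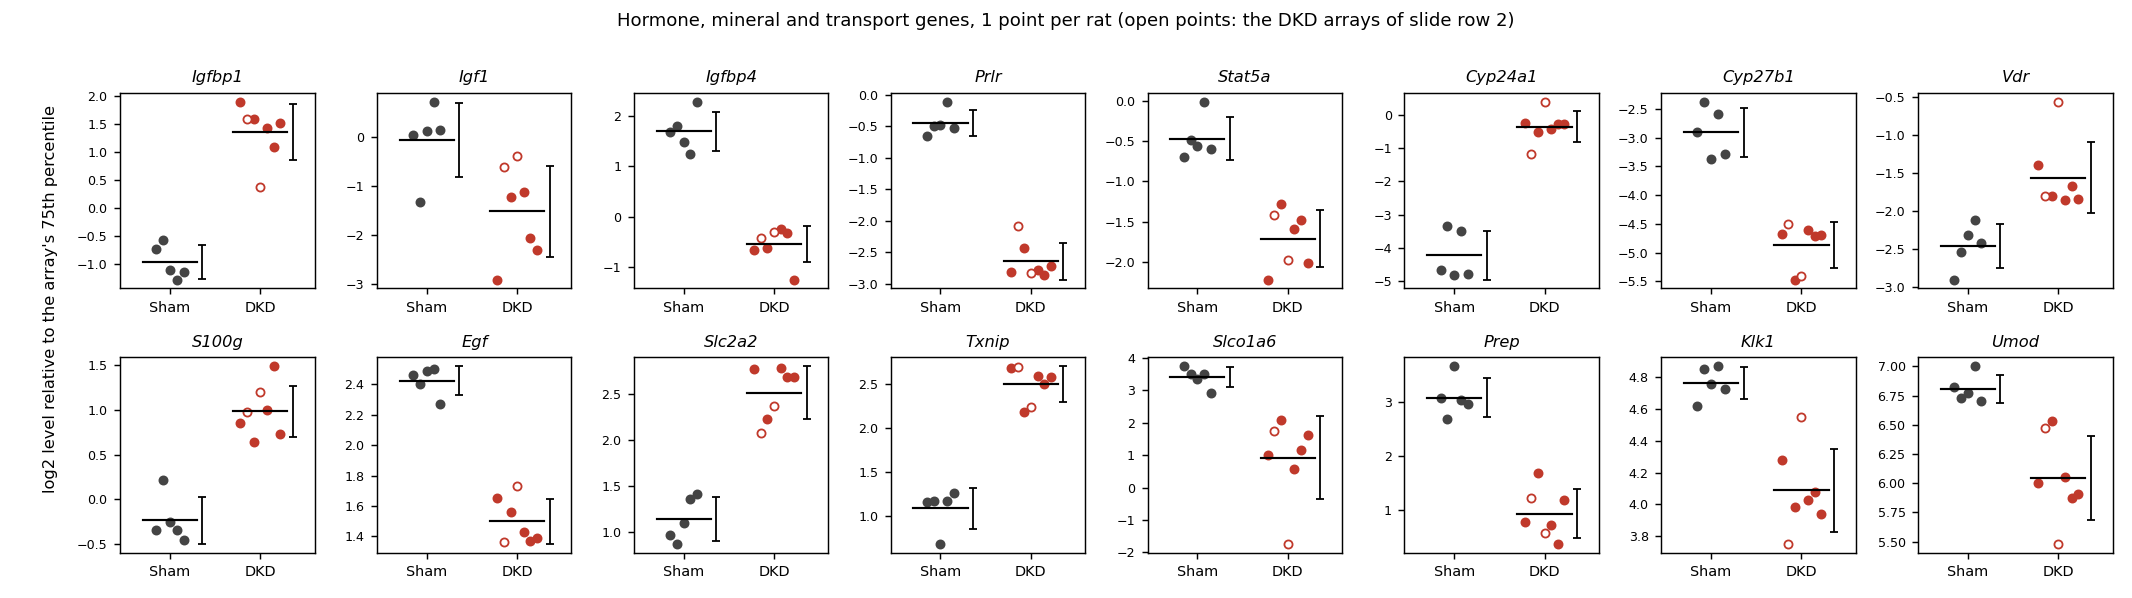
Level of 16 hormone, mineral and transport genes in each rat (y axis, log2 relative to the array's 75th percentile); grey points are Sham rats, red points DKD rats (open for the 2 arrays of slide row 2), lines are means and bars SDs. Igf1 is the panel in which the groups overlap, and DKD replicate 4 stands apart for Vdr and Slco1a6.

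Uptake carriers of organic ions of the SLC22 family fell more often than they rose, and ABC exporters rose more often than they fell. Of the SLC22 family, 1 rose and 7 fell of 18 measured. Slc22a22, which carries prostaglandins, fell by 1.47 ± 0.29 (adjusted p = 0.00185), and Slc22a13, which carries nicotinate and urate and was above background on 6 of 7 DKD arrays, by 2.23 ± 0.55 (adjusted p = 0.00909). The difference of Slc22a13 was -0.85 after normexp correction with quantile normalisation. Slco2a1, the prostaglandin transporter, went the other way: its levels were 1.30, 1.70, 1.15, 1.48 and 1.02 in Sham and from 2.30 to 2.75 with a median of 2.57 in DKD, a rise of 1.19 ± 0.13 (adjusted p = 6.77e-06). Of 21 ABC transporters, 5 rose and 1 fell: Abcc2, which exports conjugates across the brush border, rose by 1.41 ± 0.18 (adjusted p = 3.99e-05), and Abca4, a lipid flippase, fell by 1.07 ± 0.19 (adjusted p = 0.000854). Proximal amino acid carriers had 1 rise and 7 falls among 28 measured; Slc3a1, the heavy chain of the cystine carrier, fell by 0.55 ± 0.13 (adjusted p = 0.00677).

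Among conjugating enzymes, glutathione S-transferases that passed rose and sulfotransferases went both ways. Of 23 measured glutathione S-transferases 8 rose, with a median of 0.34. Gsta3 was at -1.28, -0.96, -1.03, -1.15 and -1.17 in Sham and from 0.21 to 1.34 with a median of 0.57 in DKD and rose by 1.76 ± 0.22 (adjusted p = 2.85e-05), and Mgst1, its microsomal relative, rose by 0.87 ± 0.13 (adjusted p = 0.000204). Mgst2 was above background on 1 of 5 Sham arrays, so its fitted rise of 1.92, which was 1.13 (adjusted p = 0.0313) without DKD replicates 2, 4 and 6, has no measured size; after normexp correction with quantile normalisation it was 0.36, with an adjusted p of 0.0644. Among sulfotransferases the directions differed: Sult1c3 rose by 2.32 ± 0.32 (adjusted p = 8.71e-05) and Sult1a1 by 1.53 ± 0.24 (adjusted p = 0.000211), while Sult1c2, at 5.09, 5.17, 4.82, 4.92 and 4.84 in Sham and from 2.22 to 3.97 with a median of 3.16 in DKD, fell by 1.83 ± 0.25 (adjusted p = 7.86e-05). Ephx1, the microsomal epoxide hydrolase, rose by 1.51 ± 0.21 (adjusted p = 7.84e-05). Cyp2j3, which makes epoxides of arachidonate, fell by 1.77 ± 0.18 (adjusted p = 3.28e-06), and Cyp4a1, which hydroxylates fatty acids, rose by 1.62 ± 0.20 (adjusted p = 2.27e-05). Ptgis, prostacyclin synthase, rose by 1.35 ± 0.15 (adjusted p = 1.07e-05), or 0.34 after normexp correction with quantile normalisation. Ptgs2, cyclooxygenase-2, fell by 1.31 ± 0.32 (adjusted p = 0.00815), with a difference of -0.57 after that correction.

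Metallothioneins, small proteins that bind zinc and copper, rose with little spread. Mt1 was at 5.83, 6.11, 5.81, 6.12 and 6.04 in Sham and from 6.64 to 6.82 with a median of 6.77 in DKD, where the DKD rats lay close together, and it rose by 0.77 ± 0.06 (adjusted p = 5.05e-07). Mt2A rose by 0.43 ± 0.06 (adjusted p = 0.000106). Metallothionein genes carry metal response elements with the core TGCACNC or TGCGCNC, where N is any base. Searched on both strands in the 250 bases before the RefSeq start, Mt1 held 6 and Mt2A 4 such cores, shown in capitals.
Mt1: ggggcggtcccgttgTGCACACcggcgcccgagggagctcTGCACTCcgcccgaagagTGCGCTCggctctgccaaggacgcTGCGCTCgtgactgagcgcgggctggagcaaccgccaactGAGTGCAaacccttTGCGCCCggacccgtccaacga
Mt2A: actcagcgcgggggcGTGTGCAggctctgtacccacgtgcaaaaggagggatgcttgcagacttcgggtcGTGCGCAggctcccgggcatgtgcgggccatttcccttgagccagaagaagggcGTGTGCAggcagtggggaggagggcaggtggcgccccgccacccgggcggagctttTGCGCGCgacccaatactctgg
The stretches lie at chr19:10833009-10833166 and chr19:10838742-10838943 on the minus strand of GRCr8. At least 1 core was present in 21.2% of 27457 promoters and 4 or more in 0.277%. Gpx2, a glutathione peroxidase of epithelia, was at -1.39, -0.31, 0.15, -0.91 and 0.69 in Sham and from 1.47 to 2.91 with a median of 1.49 in DKD and rose by 2.33 ± 0.38 (adjusted p = 0.000414), Srxn1, sulfiredoxin, by 1.32 ± 0.20 (adjusted p = 0.000241) and Gpx1 by 0.63 ± 0.10 (adjusted p = 0.000276). The antioxidant list had 13 rises and 4 falls among 37 measured, and 10 and 1 without DKD replicates 2, 4 and 6.

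Fat oxidation genes mostly rose and sterol synthesis genes mostly fell among those that passed. The mitochondrial list had a median difference of 0.39; Cpt2, the inner carnitine palmitoyltransferase, rose by 0.81 ± 0.12 (adjusted p = 0.000151), and Decr1, which handles unsaturated acyl chains, by 0.73 ± 0.11 (adjusted p = 0.000158). Without DKD replicates 2, 4 and 6, 11 members rose and 1 fell, and of the peroxisomal and PPAR-alpha list 19 rose and 1 fell. Apoa4, a lipoprotein of fat absorption, rose by 2.73 ± 0.44 (adjusted p = 0.000305), with 1.01 on its other probe, and Apoc3 by 0.76 ± 0.17 (adjusted p = 0.00459). In sterol synthesis, Srebf2, the master regulator, fell by 0.41 ± 0.08 (adjusted p = 0.00175) and Msmo1, a sterol oxidase, by 0.35 ± 0.07 (adjusted p = 0.00139). Of the sterol list, 2 rose and 11 fell of 29 measured, with a median of -0.26. Without DKD replicates 2, 4 and 6 its median was -0.23 and 6 fell, while falls over all genes went from 2197 to 1381. Tm7sf2, a sterol reductase, went against the sterol list and rose by 1.01 ± 0.12 (adjusted p = 2.00e-05). Scd2, a desaturase, was at 0.69, 0.29, 0.32, 0.70 and 0.27 in Sham and from -1.43 to -0.45 with a median of -0.68 in DKD and fell by 1.28 ± 0.17 (adjusted p = 4.76e-05). Elovl6, an elongase, rose by 0.83 ± 0.14 (adjusted p = 0.000368) and Pnpla3, a lipase, fell by 0.89 ± 0.16 (adjusted p = 0.000828). The difference of Pnpla3 was -0.35 after normexp correction with quantile normalisation. In ketone metabolism (5 rose and 3 fell of 13 measured) Oxct1, the enzyme that commits ketones to oxidation, fell by 0.81 ± 0.08 (adjusted p = 4.37e-06) and Bdh1 by 0.77 ± 0.19 (adjusted p = 0.00975).

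The carrier by which glucose leaves the proximal tubule cell rose, and those by which it enters did not pass. Slc2a2 (GLUT2), which passes reabsorbed glucose to the blood, was at 0.97, 0.87, 1.10, 1.36 and 1.42 in Sham and from 2.08 to 2.79 with a median of 2.69 in DKD and rose by 1.37 ± 0.15 (adjusted p = 8.37e-06). Slc5a2 (SGLT2), the main carrier for entry, had a difference of -0.38 (adjusted p = 0.0673) and Slc5a1 (SGLT1) one of 0.32 (adjusted p = 0.271). Slc5a2 passed, as a fall, in 6 of the alternative fits, among them the quantile-normalised one with an adjusted p of 0.00859 and the blocked one, which gave 0.046 with the replicate number as a block. Slc5a10, a mannose and fructose carrier, rose by 1.39 ± 0.24 (adjusted p = 0.000633), and Slc2a5 (GLUT5), the fructose carrier, fell by 0.95 ± 0.18 (adjusted p = 0.00124). Txnip, a glucose-induced inhibitor of glucose uptake, was at 1.16, 1.18, 0.69, 1.17 and 1.26 in Sham and from 2.18 to 2.69 with a median of 2.57 in DKD and rose by 1.40 ± 0.13 (adjusted p = 1.36e-06). Its relatives Arrdc3 and Arrdc4 rose by 0.84 ± 0.14 (adjusted p = 0.000376) and 0.73 ± 0.14 (adjusted p = 0.00113). The rise of Arrdc4 was 0.34 after normexp correction with quantile normalisation. Pck1, the committed enzyme of glucose synthesis, rose by 1.17 ± 0.17 (adjusted p = 0.00013), and Fbp2 by 1.81 ± 0.15 (adjusted p = 5.73e-07). Pdk4, which shuts pyruvate out of the mitochondrial cycle, exceeded background in all DKD rats but in only 1 of 5 Sham rats; its fitted rise of 2.78 (adjusted p = 1.16e-06) is 0.47 after normexp correction with quantile normalisation, so the size is not measured. In glycolysis Ldha rose by 0.65 ± 0.09 (adjusted p = 8.87e-05) and Eno1 fell by 0.61 ± 0.11 (adjusted p = 0.000698).

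Amino acid and one-carbon enzymes moved unevenly. Bhmt, which remethylates homocysteine with betaine, was at 3.22, 3.69, 3.55, 3.11 and 3.12 in Sham and from 4.53 to 5.58 with a median of 4.88 in DKD and rose by 1.62 ± 0.22 (adjusted p = 5.85e-05). Mtr, methionine synthase of the folate-dependent route, went the other way and fell by 0.66 ± 0.09 (adjusted p = 6.35e-05). Cbs, the first step from homocysteine to cysteine, fell by 0.69 ± 0.15 (adjusted p = 0.0032), and Mat2a, which makes S-adenosylmethionine, by 0.97 ± 0.22 (adjusted p = 0.00557). Of the methionine list, 2 rose and 7 fell of 27 measured. Nags, which makes the activator of the urea cycle, rose by 2.49 ± 0.40 (adjusted p = 0.000325), or 0.76 after normexp correction with quantile normalisation, and Gatm, the kidney step of creatine synthesis, fell by 1.20 ± 0.20 (adjusted p = 0.000371). In tryptophan metabolism, Afmid, which makes kynurenine, fell by 1.02 ± 0.12 (adjusted p = 1.54e-05), Kyat1, which turns kynurenine into kynurenic acid, by 0.64 ± 0.08 (adjusted p = 5.43e-05), and Qprt, which leads quinolinate to NAD, by 0.98 ± 0.20 (adjusted p = 0.00254). Nampt, which recycles nicotinamide into NAD, rose by 0.88 ± 0.14 (adjusted p = 0.000296), and its other probe gave 0.42. That list had 3 rises and 8 falls among 28 measured, with 5 falls without DKD replicates 2, 4 and 6.

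Targets of p53, the factor that responds to DNA damage, rose more often than they fell: 17 rose and 1 fell of 39 measured, with a median of 0.36. Plk2, a polo-like kinase, was at -5.45, -5.25, -5.40, -5.00 and -5.22 in Sham and from -3.34 to -2.71 with a median of -2.94 in DKD and rose by 2.28 ± 0.18 (adjusted p = 3.01e-07), or 1.10 after normexp correction with quantile normalisation. Ccng1, cyclin G1, was at -0.14, 0.11, -0.07, -0.04 and 0.06 in Sham and from 1.23 to 1.71 with a median of 1.44 in DKD and rose by 1.49 ± 0.13 (adjusted p = 5.90e-07). In both genes the groups stood apart with little spread. Phlda3, an inhibitor of AKT signalling, rose by 1.64 ± 0.24 (adjusted p = 0.000153), or 0.72 after normexp correction with quantile normalisation. Gdf15, a stress cytokine, rose by 1.35 ± 0.22 (adjusted p = 0.000326). Without DKD replicates 2, 4 and 6, 16 members rose and 1 fell. Of 42 cell cycle genes, 2 rose, Ccne1, cyclin E1, by 1.00 ± 0.25 (adjusted p = 0.00872, and 0.074 without those 3 rats) and Tyms, thymidylate synthase, by 0.72 ± 0.11 (adjusted p = 0.000204). The rise of Ccne1 was 0.30 after normexp correction with quantile normalisation.

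The injury list had a median difference of 0.59, and with the row 2 arrays left out 21 of its members rose and 4 fell; without DKD replicates 2, 4 and 6 the counts were 20 and 4. Nrg1, neuregulin, was at -2.13, -1.69, -1.71, -1.82 and -1.83 in Sham and from -0.72 to -0.22 with a median of -0.32 in DKD and rose by 1.45 ± 0.17 (adjusted p = 1.16e-05). Krt8, a keratin of simple epithelia, rose by 0.81 ± 0.10 (adjusted p = 2.41e-05), and S100a6 by 0.85 ± 0.10 (adjusted p = 2.43e-05). Krt7, another simple keratin, went the other way: it was at 4.07, 4.11, 4.16, 4.14 and 4.24 in Sham and from 2.87 to 3.24 with a median of 3.20 in DKD and fell by 1.02 ± 0.08 (adjusted p = 4.14e-07). NGAL, encoded by Lcn2, overlapped between the groups and rose by 1.69 ± 0.45 (adjusted p = 0.0148), with 1.29 (adjusted p = 0.0581) without the row 2 arrays. Anxa13, an annexin of epithelia, exceeded background in all Sham rats but in 1 of 7 DKD rats; its fitted fall (adjusted p = 0.000112) has no measured size and came to -1.96 after normexp correction with quantile normalisation.

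Along the nephron, thick ascending limb genes fell more often than they rose (2 rose and 8 fell of 20 measured), and of 8 markers of that segment 3 fell, with a mean level between 1.30 and 1.50 in Sham and between 0.87 and 1.20 in DKD. Umod, uromodulin, which this segment makes and sheds into urine, was at 6.82, 6.73, 6.77, 7.00 and 6.70 in Sham and from 5.48 to 6.53 with a median of 6.00 in DKD and fell by 0.76 ± 0.17 (adjusted p = 0.00399). Cldn10 and Cldn16, the claudins of its cation pathway, fell by 0.79 ± 0.12 (adjusted p = 0.000162) and 0.81 ± 0.19 (adjusted p = 0.00627), and Tmem207 by 1.40 ± 0.25 (adjusted p = 0.000885). Slc12a1, the sodium-potassium-chloride carrier of the segment, had a difference of -0.35 (adjusted p = 0.327). Foxq1, a transcription factor of this list, rose by 0.98 ± 0.18 (adjusted p = 0.000841). Among other claudins, Cldn1 rose by 1.09 ± 0.21 (adjusted p = 0.00152) and Cldn15, a cation pore, by 1.04 ± 0.20 (adjusted p = 0.00167). Aqp2, the vasopressin-regulated water channel of the collecting duct, was at 4.65, 5.01, 4.80, 4.70 and 4.79 in Sham and from 5.23 to 5.52 with a median of 5.48 in DKD and rose by 0.61 ± 0.08 (adjusted p = 6.83e-05); Aqp4, in the basolateral membrane of the same cells, rose by 1.56 ± 0.21 (adjusted p = 5.19e-05) and Aqp1, the water channel of the proximal nephron, fell by 0.38 ± 0.10 (adjusted p = 0.0146, and 0.0589 without DKD replicates 2, 4 and 6). The 8 measured markers of collecting duct principal cells were mixed: 3 rose, Aqp2 among them, and 4 did not pass. Another, Hsd11b2, had a difference of -0.61 (adjusted p = 0.00936). Aqp4 was listed with the markers of inner medulla and papilla, of which 2 of 7 measured rose. Slc12a3, the thiazide-sensitive carrier, had a difference of 0.05 (adjusted p = 0.934), whose sign differed between alternatives. Of 10 measured podocyte markers 2 fell, among them Nphs1, nephrin, by 0.44 ± 0.11 (adjusted p = 0.0128), and 1 rose, Cdh13, by 1.01 ± 0.25 (adjusted p = 0.0101). The rise of Cdh13 was 0.45 after normexp correction with quantile normalisation. Col4a4, a chain of the glomerular basement membrane collagen, fell by 1.26 ± 0.14 (adjusted p = 1.26e-05).

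Renin-angiotensin and peptidase genes fell more often than they rose, with 9 falls and 3 rises among 29 measured, and 8 and 1 without DKD replicates 2, 4 and 6. Anpep, aminopeptidase N, fell by 1.14 ± 0.20 (adjusted p = 0.000551), with -0.25 on its other probe, and Prep, prolyl endopeptidase, which was at 3.07, 2.68, 3.66, 3.04 and 2.96 in Sham and from 0.37 to 1.68 with a median of 0.77 in DKD, by 2.15 ± 0.32 (adjusted p = 0.000143). Klk1, tissue kallikrein, a protease that frees kinins, fell by 0.68 ± 0.14 (adjusted p = 0.00311). The array's own annotation names this probe Klk1c7, so the value is uncertain for the single gene. Agt, angiotensinogen, had a difference of -0.62 (adjusted p = 0.169) and Ace one of -0.86 (adjusted p = 0.106), neither past the threshold.

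Matrix genes showed no common direction: 7 rose and 6 fell of 50 measured, with a median of 0.11. Lox, which cross-links collagen, was at -3.69, -3.30, -4.02, -3.92 and -4.43 in Sham and from -2.52 to -1.89 with a median of -2.17 in DKD and rose by 1.68 ± 0.18 (adjusted p = 5.55e-06). Smad7, which dampens TGF-beta signals, fell by 0.86 ± 0.12 (adjusted p = 0.000127). The main fibrosis genes did not pass: Fn1 differed by 0.39 (adjusted p = 0.0805), Col1a1 by 0.42 (adjusted p = 0.202) and Tgfb1 by 0.10 (adjusted p = 0.709); Fn1 passed in 3 alternative fits, among them array weights with an adjusted p of 0.0331.

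Immune genes changed in part. Cxcl11, a ligand of the chemokine receptor CXCR3, was at -3.07, -3.08, -3.11, -3.16 and -2.34 in Sham and from -1.41 to -1.10 with a median of -1.28 in DKD and rose by 1.70 ± 0.17 (adjusted p = 2.27e-06), and Icam1, an adhesion molecule, rose by 0.76 ± 0.12 (adjusted p = 0.00023). Cx3cl1, fractalkine, fell by 0.70 ± 0.16 (adjusted p = 0.00515), and Ccl2, the monocyte chemokine, differed by 0.23 (adjusted p = 0.605). Of 37 interferon-induced genes 1 rose and 4 fell (2 fell without DKD replicates 2, 4 and 6), a share of calls near the 17.1% of all genes. Of the antigen presentation and RT1 genes (the rat class I and class II genes), 10 rose and 1 fell of 40 measured, with a median of 0.32; RT1-A1 rose by 0.76 ± 0.14 (adjusted p = 0.00116) and RT1-CE1 by 1.34 ± 0.28 (adjusted p = 0.0028). RT1 genes are near-identical copies, so the probes may not separate them and these values are uncertain for the single gene. No measured marker of T cells (8 genes), B cells (3), neutrophils (3) or endothelium (10) passed in limma, with an unadjusted p under 0.05 for 2, 0, 0 and 1 of them; after normexp correction with quantile normalisation 1 endothelial marker passed and none of the others. Of the 10 macrophage markers 3 rose, of which 1, Cd163, passed without the row 2 arrays. Cd163, above background on no Sham array, was above it on 6 of 7 DKD arrays and highest in DKD replicates 4, 2 and 6. The fitted difference was 3.17 with all rats and 2.14 without those 3. After normexp correction with quantile normalisation it was 0.45 (adjusted p = 0.089), so the size is not measured.

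Chaperone genes of the cytosol and the endoplasmic reticulum fell more often than they rose. Of the cytosolic heat shock list, 3 rose and 9 fell of 27 measured, against 2 and 5 without the row 2 arrays and 1 and 4 without DKD replicates 2, 4 and 6. Dnaja4 fell by 1.04 ± 0.10 (adjusted p = 3.11e-06) and Fkbp4, a co-chaperone of steroid receptors, by 0.47 ± 0.11 (adjusted p = 0.00442, and 0.0589 without DKD replicates 2, 4 and 6), while Hspa1a, the inducible Hsp70, rose by 0.75 ± 0.10 (adjusted p = 8.32e-05). Of the unfolded protein response list, 4 rose and 8 fell of 34 measured, against 3 and 5 in either of those subsets. Sdf2l1, a partner of BiP, fell by 0.87 ± 0.15 (adjusted p = 0.000675) and Hspa5, BiP itself, by 0.41 ± 0.09 (adjusted p = 0.00459), whereas Asns, the asparagine synthetase of the ATF4 branch, rose by 0.80 ± 0.17 (adjusted p = 0.0028). In iron handling, 11 rose and 2 fell of 32 measured; Aco1, the iron regulatory protein 1, rose by 0.80 ± 0.13 (adjusted p = 0.000368), and Slc11a2, the iron importer DMT1, fell by 0.70 ± 0.14 (adjusted p = 0.00181). Of 36 subunits of respiratory complex I 3 fell and 10 had an unadjusted p under 0.05; none passed in limma without the row 2 arrays, and 23 fell after normexp correction with quantile normalisation.

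**Figure D5:**
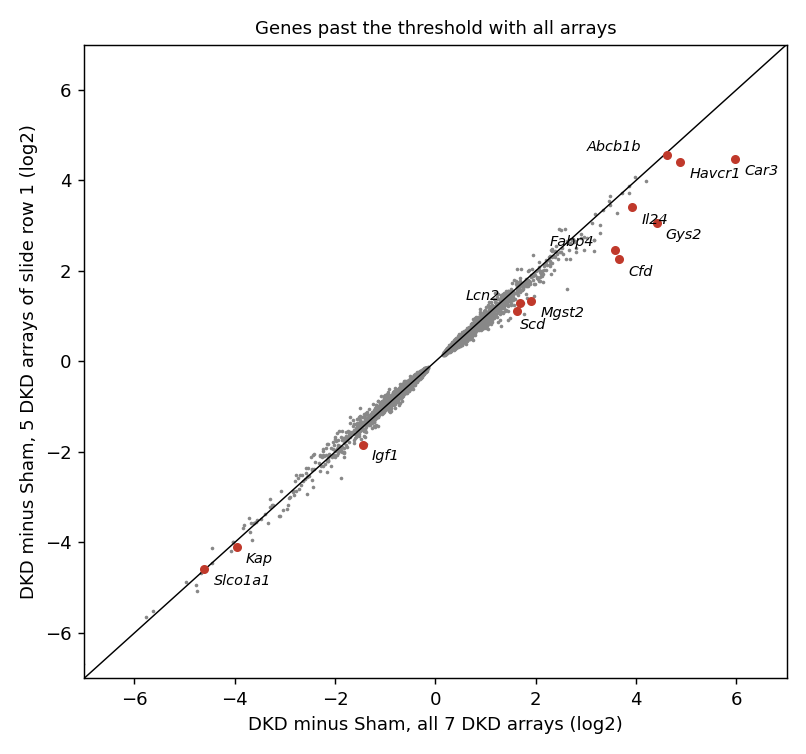
Log2 difference DKD minus Sham with all 7 DKD arrays (x axis) and with the 5 DKD arrays of slide row 1 (y axis), for the 4140 genes past the threshold; the line marks equal values, and red points are labelled genes. Both axes share the same 5 Sham and 5 of the DKD arrays, so the closeness to the line is in part built in; Car3, Gys2, Fabp4 and Cfd lie below it and Igf1 lies further from 0 on the y axis.

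When the row 2 arrays were left out, Car3 went from 5.97 to 4.48, Gys2 from 4.41 to 3.06, Cfd from 3.66 to 2.25 (adjusted p = 0.135, which ended its call) and Fabp4 from 3.58 to 2.47. Abcb1b (4.56), Baat (3.25), Cyp24a1 (3.87) and Kap (a fall of 4.09) stayed close to their values with all arrays.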

How the data were processed

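Total RNA of 19 renal cortices was hybridised to single-colour Agilent arrays, 1 per rat. The intensity values analysed are the deposited processed signals of Feature Extraction 11.5.1.1, background-subtracted per the file headers. The deposited value table, on a log2 scale with centring not stated, served as an alternative. Replicate spots were averaged, log2 values were centred on each array's 75th percentile, and probes well above background on at least 5 of 19 arrays were kept, with the brightest probe standing for a gene; 21109 probes were named through RefSeq accessions. limma 3.58.1 (R 4.3.3, lmFit and eBayes) fitted the 3 groups together with 16 residual degrees of freedom, and p-values were adjusted by Benjamini-Hochberg; the fit was tested on simulated data. No spot was saturated. The number of arrays limits the precision.

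The gene lists, the cell markers and the rule for named genes were chosen with earlier results of these data known. The rule took the 15 largest rises and falls that were above background on all 12 arrays, did not overlap between groups and held without row 2; the 8 largest changes each way detected in 1 group alone; list members with the smallest p (at most 6 per list, or any member of a list of up to 15); and a fixed set of kidney genes. Groups share replicate numbers in the labels. Deviations of rats with the same number correlated at 0.18, 0.13, 0.59, 0.39 and 0.35, and each such pair also shared a slide. A few genes picked by this rule are left unreported.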

Additional observations from a re-analysis of the deposited data

Results flagged for a closer look

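In 23 of 364 groups of 5 or 7 rats examined among the named genes, 1 rat lay far from the others of its group. The rule was Dixon's gap ratio, the gap to the nearest rat over the range of the group. Its limits are set for about 1 in 20 groups of normally distributed values, a rate that was not tested in these data. Levels are log2 relative to the array's 75th percentile. DKD replicate 4 gave 6 of the 23: it was lowest for Slco1a6 at -1.74 (the other DKD rats from 0.56 to 2.07), for Slc7a13 at -1.09 (0.34 to 1.29) and for Sult1a1 at 2.13 (2.99 to 3.57), and highest for Vdr at -0.57 (-1.86 to -1.40), for Cpt2 at 1.14 (0.37 to 0.63) and for Igfbp6 at -2.24 (-3.31 to -2.88). This array lay in slide row 2 and had the lowest share of probes above background, 54.7%, with adipocyte markers at a mean level of -1.36. Of the other diabetic rats, replicate 2 was lowest for Krt8 at -0.18 and for Kl at -0.62, replicate 3 for Cldn15 at 5.60, replicate 6 for Ldha at 4.72 and replicate 7 for Igfbp4 at -1.24.

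Among Sham rats, replicate 2 was highest for Cyp2c11 at 1.06 (the others from -0.66 to -0.18), for Cyp4a1 at 2.13 (1.03 to 1.17) and for Decr1 at 3.32 (2.75 to 2.85), and lowest for Gatm at 2.08 (2.90 to 3.18) and for Asns at -3.30. Cyp4a1 and Decr1 are fat oxidation genes. Sham replicate 3 was highest for Rgn at 3.04 and for Mogat2 at -8.66, where no Sham array was above background, and lowest for Txnip at 0.69 (1.16 to 1.26). Sham replicate 4 was highest for Fxyd2 at 5.30 and for Igfbp6 at -4.03, and Sham replicate 5 was highest for Cxcl11 at -2.34 and lowest for Mat2a at -0.57.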

How the results depend on the processing

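All 12 arrays gave 4140 genes past the threshold. With the replicate number as a block the count was 4555, and among the genes named the pairing ended the call of Igf1 alone. Leaving out 1 rat at a time gave 3156 to 3987 genes, with 1529 to 1835 higher and 1627 to 2179 lower in DKD; the lowest count came without Sham replicate 3. Without DKD replicates 2, 4 and 6, an alternative chosen after seeing the data, 2695 genes passed, 1314 higher and 1381 lower; 2598 of the 2695 were among the 4140, with no change of sign. The authors' deposited value table held fewer genes (18356) and gave 2217 higher and 3574 lower. Normexp correction with quantile normalisation gave 1590 higher and 2990 lower, and quantile normalisation alone 1556 and 2655. The remaining alternatives (centring on the median, 2 other filters on dim probes, mean of probes, slide block, slide row left out or as a covariate, Sham and DKD arrays alone, array weights) gave 3140 to 5451 genes. No named gene past the threshold changed sign under an alternative that gave it a value; Slc12a3, which did not pass, had both signs. Of 171 named genes past the threshold 157 kept their call in each alternative that gave them a value, and 20 of the 171 are not in the authors' value table. Dim probes carry the least certain sizes: of the genes ranked by level in 4 equal parts, 8.04% of the dimmest part passed, against 27.0% of the brightest.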
